A study of Mus musculus with 9 samples.

Results

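Neuro2a cells that were given a xyloside at 1 mM (HCX, 3 libraries) were compared with cells given the same xyloside at 500 nM (LCX, 3 libraries). Genes were included where at least 3 of the 9 libraries of the series had a value of at least 10, which held for 13179 of the 24972 gene names. Neuro2a is a mouse neuroblastoma line of sympathetic type that sends out neurites in culture, and all cells were grown in DMEM with fetal bovine serum. The xyloside was 4-methylumbelliferyl-β-D-xylopyranoside, a xylose joined to a small aromatic group, and the labels give 48 h for each group. The remaining 3 libraries came from cells that received DMSO and no xyloside, and they serve here only to share the estimate of the spread and to place the doses in order. The study reported that the low dose enlarged the growth cones of hippocampal neurons, while the longest neurite did not differ in length. In Neuro2a cells it reported lamellipodia with fewer actin bundles and slower movement at that dose. RNA was sequenced to ask whether mRNA levels changed with either dose. Whether the 3 libraries of each dose were grown as separate cultures is not stated in the labels, so each p-value measures the spread between these samples, which may be technical.

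Glycosaminoglycans (GAGs) are long, mostly sulfated sugar chains that are built in the Golgi on serine residues of proteoglycan core proteins, and the first sugar of the link is a xylose. A free xyloside enters cells and offers the next enzymes of the pathway a soluble substitute for the xylosylated core protein, so chains are built on the drug and secreted while core proteins carry fewer of them. Chondroitin sulfate and heparan sulfate are the main chain types in neural cells, where they hold growth factors and guidance cues at the surface.

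The values are normalized counts, that is read numbers scaled so that libraries can be compared. They were compared as log2(value + 1) with limma, in 1 model over all 9 libraries, and p-values were adjusted over the 13179 genes. Calls were made at an adjusted p below 0.05, and at 2-fold where the log2 fold change, HCX minus LCX, was also at least 1 in size. On this scale the changes of genes with low values are understated. The libraries summed to between 34949840 and 35331564 normalized counts in HCX and between 35597229 and 35668474 in LCX, and from 12832 to 12902 genes reached 10 in HCX libraries, against 12923 to 13005 in LCX libraries. Factors that equalize the median ratio were between 0.9901 and 0.9911 in HCX and between 0.99 and 0.9909 in LCX, against 1.0191 to 1.0201 in DMSO. How the authors' normalization led to these factors was not tested. Factors from the library sums were 0.9763 to 0.987 in HCX and 0.9944 to 0.9964 in LCX. Most markers of the labelled line were expressed, except that of 21 noradrenergic neuroblast genes Slc6a2 was listed at 0 in all libraries, and the sum over the list was 85365 to 88991 in HCX libraries and 77582 to 81781 in LCX libraries.

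The higher dose changed many genes by a little and few genes by much. In HCX 1101 genes were higher (8.35% of those tested) and 1179 were lower (8.95%) than in LCX, 17.3% in either direction. Which direction held more calls turned over with the scaling, since 1305 genes were higher and 1002 lower with library size scaling and 1290 and 955 with voom. Of those higher, 716 differed by less than 1.25-fold, 305 by 1.25-fold to 1.5-fold, 61 by 1.5-fold to 2-fold and 19 by 2-fold or more. Of those lower, the corresponding numbers were 665, 303, 125 and 86. The median change of called genes was 1.207-fold upwards and 1.221-fold downwards, and the median log2 fold change over all 13179 genes was -0.0002. At 2-fold, 19 genes were higher (0.144%) and 86 were lower (0.653%). Groups did not overlap, so that each HCX library lay above or below each LCX library, for 36.5% of all genes tested, for 16 of the 19 and for 84 of the 86. Of all called genes this held for 1088 of the 1101 higher and 1153 of the 1179 lower. Statements below that the groups of a called gene were apart therefore describe its values and add no support to its call. The numbers of calls fell when 1 library was left out, most with LCX replicate 3 (641 genes higher and 728 lower). With each HCX or LCX library left out in turn there were 641 to 868 higher and 728 to 1032 lower genes, and at 2-fold 11 to 23 higher and 62 to 102 lower. Such ranges, given below as a range with 1 library left out, stand beside most counts of gene groups. Percentages after the counts are shares of the members tested, to be set against 8.35% higher and 8.95% lower over all genes. In short lists a single call moves the share by several percent.

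**Figure D1:**
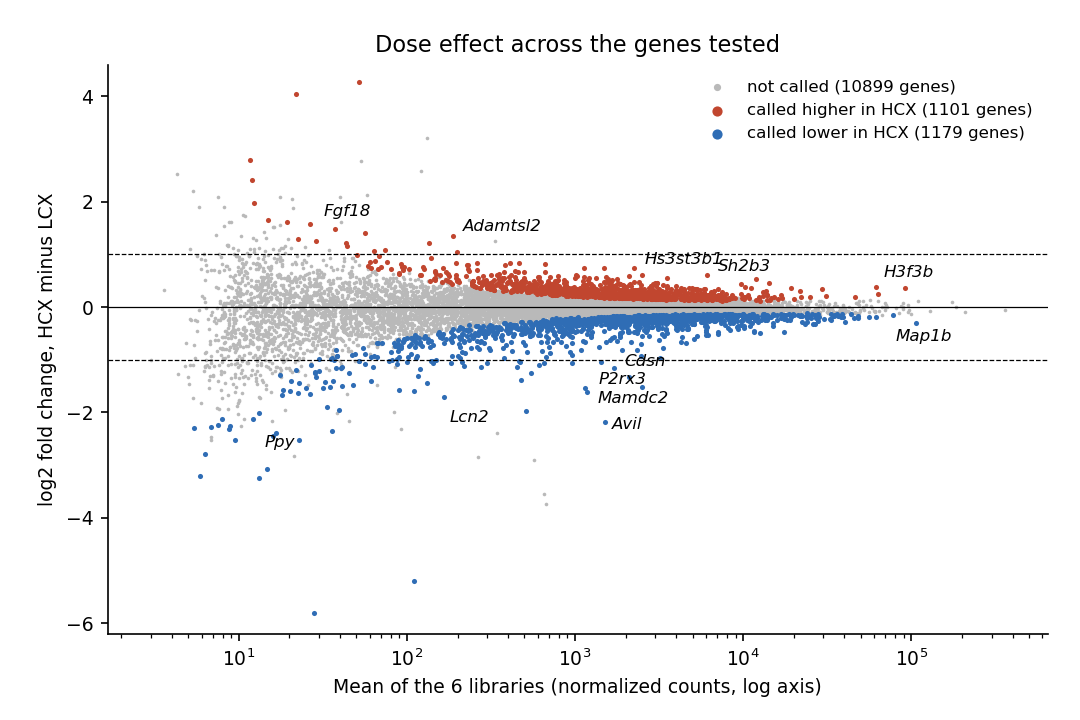
The log2 fold change of HCX over LCX (vertical axis) is plotted against the mean of the 6 libraries in normalized counts (horizontal log axis), 1 point for each of the 13179 genes, with dashed lines at 2-fold. The 86 genes lower and the 19 genes higher at 2-fold lie mostly at low means, while the abundant genes H3f3b and Map1b moved by 0.36 and -0.30.

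Genes called at 2-fold were weakly expressed. Their median level over the 6 libraries was 37.1 normalized counts for the 19 higher and 43.1 for the 86 lower genes, against 1132 over all genes, and 16 and 54 of them lay below 100. Among the 552 genes with a mean of 10000 or more, none changed 2-fold, but 114 were lower in HCX (20.7%) and 36 higher (6.52%). Among the 6457 genes with means between 1000 and 10000 the shares were 9.88% lower and 10.8% higher, and among the 2211 genes below 100 they were 3.93% and 1.45%, where the median standard error was 0.384 on the log2 scale. Of 433 long noncoding RNA genes 5.31% were lower and 1.62% higher, and of 12457 protein coding genes 9.23% and 8.64%. Equal-sized groups of genes by exonic length or by transcript GC content had medians between -0.005 and 0.008, so neither property went with the direction of change.

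The 6 most abundant genes that were called show how small changes at high levels were. H3f3b, which encodes the replacement histone H3.3, had 101780.0, 102719 and 103548 normalized counts in HCX libraries and 79788, 82060.3 and 77699 in LCX libraries. Its log2 fold change was 0.36 (standard error 0.06, adjusted p = 0.000146). Map1b, a microtubule-associated protein of growing neurites, stood at 91106, 93563 and 103366 in HCX and at 116369, 120819 and 116552 in LCX (-0.30, adjusted p = 0.000923). Neither gene had overlapping groups. Acly, the enzyme that supplies cytosolic acetyl-CoA, was higher (0.37, adjusted p = 1.25e-05), as was Vgf, a secreted neuropeptide precursor (0.25, adjusted p = 0.00216). Eprs, the glutamyl-prolyl-tRNA synthetase, was lower (-0.19, adjusted p = 0.0075), and the beta-tubulin gene Tubb5 was at -0.16 (adjusted p = 0.0469). The call of Tubb5 was lost when any of 5 libraries was left out (adjusted p up to 0.171 without LCX replicate 2, and a value of -0.10 without HCX replicate 3), with library size scaling, without the filter and with a pseudocount of 10.

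The clearest falls by adjusted p were those of 6 genes that are not highly expressed. P2rx3 encodes the ATP-gated channel P2X3 of pain-sensing neurons and lies on chromosome 2 from 84998583 to 85037462 (GRCm38, GENCODE vM21, as for all positions of genes). It had 605, 609 and 554 normalized counts in HCX libraries and 1778, 1643 and 1698 in LCX libraries. The gap between the groups was far wider than the spread within them, and the log2 fold change was -1.53 (95% interval -1.67 to -1.39, adjusted p = 1.63e-11). Mamdc2, the gene of a secreted proteoglycan on chromosome 19 from 23302609 to 23448442, had 624, 648 and 472 in HCX and 1778, 1711 and 1825 in LCX (-1.62, standard error 0.09, adjusted p = 5.53e-10). Avil encodes advillin, an actin-binding protein of the gelsolin family that is typical of sensory neurons, and lies on chromosome 10 from 127000709 to 127020994. It stood at 528, 674 and 443 in HCX against 2418, 2253 and 2756 in LCX (-2.19, standard error 0.13, adjusted p = 1.55e-09). These 3 genes had no overlap between doses.

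Fetub, Cdsn and Serpinf1 were the other genes with the smallest adjusted p, and each encodes a secreted protein. Fetub, the protease inhibitor fetuin-B (chromosome 16, 22918334 to 22939778), had 969.7, 929 and 909 in HCX and 1855, 2031 and 1878 in LCX (-1.04, standard error 0.06, adjusted p = 1.65e-09). Cdsn, the adhesive protein corneodesmosin (chromosome 17, 35552128 to 35557180), had 1011, 1197 and 963 in HCX and 2327, 2391 and 2369 in LCX (-1.17, standard error 0.08, adjusted p = 7.44e-09). Serpinf1, pigment epithelium-derived factor, averaged 1199.8 ± 226 in HCX and 2989 ± 181 in LCX (SD, n = 3 libraries each), with a log2 fold change of -1.33 (adjusted p = 1.2e-08).

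Among genes with low values the falls were larger in fold and less exact. Ankrd2, a stretch-responsive muscle gene, had 2.08, 9.08 and 9.57 in HCX and 39.7, 33.9 and 43.4 in LCX (-2.53, standard error 0.46, adjusted p = 0.000767). Ppy, which encodes pancreatic polypeptide, had 7.28, 16.2 and 10.5 in HCX against 63.1, 49.5 and 67.5 in LCX (-2.36, standard error 0.34, adjusted p = 8.05e-05). Grb10, an imprinted adaptor that restrains insulin receptor signalling, stood at 16.1, 11.5 and 12.8 in HCX and 58.6, 64.5 and 38.3 in LCX (-1.90, standard error 0.31, adjusted p = 0.000298). Groups that do not overlap were a condition for naming genes at 2-fold, so the gap itself adds nothing here. Lcn2, which encodes the siderophore-binding protein lipocalin 2, had 208, 289 and 139 in HCX and 821, 681 and 919 in LCX (-1.98, standard error 0.22, adjusted p = 6.02e-06). Csmd1, a large complement control protein of the membrane, averaged 76.9 ± 17.6 in HCX and 253 ± 49 in LCX (-1.72, adjusted p = 4.54e-06). Acta1, skeletal muscle actin (-1.96, adjusted p = 0.000601), Sfrp4, a secreted Wnt inhibitor (-1.66, adjusted p = 0.00452), Ccr10, a chemokine receptor (-1.60, adjusted p = 3.23e-05), and Mmp9, a gelatinase of the extracellular matrix (-1.57, adjusted p = 2.09e-05), were lower at 2-fold too.

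The clearest rises were smaller in fold. Sh2b3, which encodes the adaptor LNK, a brake on cytokine receptor signalling (chromosome 5, 121815488 to 121837646), had 7247, 7529 and 7327 in HCX and 4698, 4920.3 and 4928 in LCX. Its log2 fold change was 0.60 (95% interval 0.51 to 0.70, adjusted p = 2.72e-08). Hs3st3b1 encodes a heparan sulfate 3-O-sulfotransferase and lies on chromosome 11 from 63885792 to 63922290. It stood at 2777, 2836 and 2836 in HCX and 1674, 1682 and 1697 in LCX (0.74, 95% interval 0.62 to 0.86, adjusted p = 4.13e-08). In both genes the libraries of a dose were within a few percent of each other. Chgb, a granin of dense-core secretory granules, had 16812, 16147 and 16672 in HCX against 11754, 11821 and 12395 in LCX (0.46, adjusted p = 2.11e-07). Hand2, a transcription factor of sympathetic neurons, had 13983, 13410.1 and 14803 in HCX against 9566, 10001 and 9471 in LCX (0.54, adjusted p = 4.75e-07). Adcyap1r1, the receptor of the neuropeptide PACAP, rose by 0.61 (adjusted p = 1.36e-06) and Optn, an autophagy receptor, by 0.57 (adjusted p = 1.99e-06).

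Of the 19 rises at 2-fold, 16 were of genes with a mean below 100. Of those above it, Adamtsl2, a secreted glycoprotein of microfibrils, had 262, 206 and 347 in HCX and 113, 121 and 79.9 in LCX (1.36, standard error 0.21, adjusted p = 0.000161). Dusp14, another gene above 100 and a phosphatase of MAP kinases, had 282, 217 and 299.6 in HCX and 130.4, 108 and 146 in LCX (1.05, standard error 0.17, adjusted p = 0.000303). Fgf18, a fibroblast growth factor at a lower level, had 38.6, 35.4 and 46.2 in HCX and 14.1, 14.5 and 10.1 in LCX (1.57, standard error 0.40, adjusted p = 0.00968). As the rule for naming genes at 2-fold required, the HCX libraries of each lay above the LCX libraries. Itpka, an inositol trisphosphate kinase that bundles actin (1.07, adjusted p = 0.00475), Klhl10 (1.09, adjusted p = 0.00545) and Rflna, a filamin regulator (1.16, adjusted p = 0.00895), were also higher. Fam163b (1.21, adjusted p = 0.00941), Inka2, an inhibitor of PAK4 (1.48, adjusted p = 0.012), and Klhl3, a substrate adaptor of a ubiquitin ligase (1.25, adjusted p = 0.0279), lost their calls when 1 library was left out. The adjusted p was then at most 0.0577 for Fam163b without LCX replicate 1, 0.0813 for Inka2 without HCX replicate 3 and 0.123 for Klhl3 without LCX replicate 1.

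**Figure D2:**
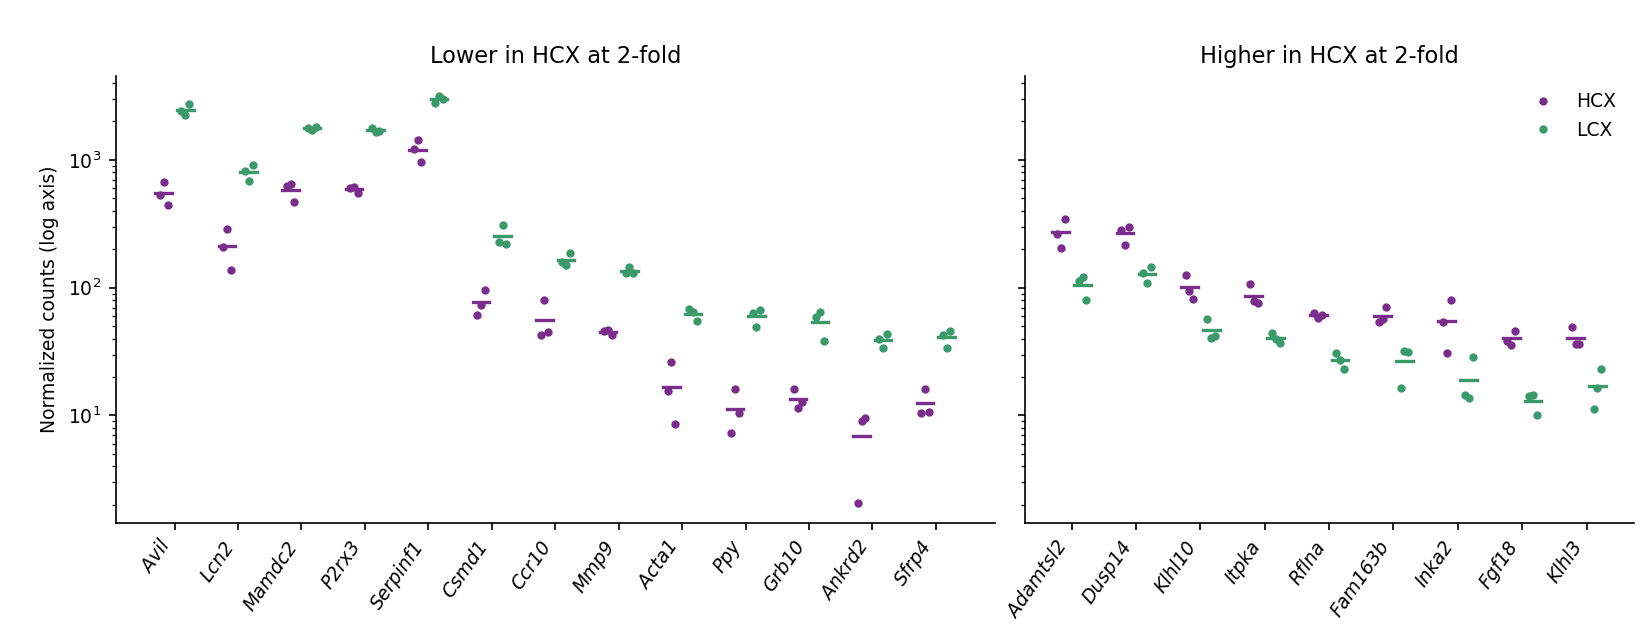
Normalized counts (log axis) are shown for genes that were lower (left) or higher (right) in HCX at 2-fold, with 1 point per library and a line at each mean, HCX left of LCX. The HCX points of Avil lie between 443 and 674 and its LCX points between 2253 and 2756, whereas Fgf18 lies between 35.4 and 46.2 in HCX and between 10.1 and 14.5 in LCX.

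The pathway that the xyloside enters comes first. Of 16 genes for the linkage region and for chain polymerisation, 4 were higher in HCX (25%, against 8.35% of all genes) and 1 lower (6.25%, against 8.95%), with a median log2 fold change of -0.03. The galactosyltransferase B3galt6, which adds a galactose to the link, had 289.7, 297 and 288 normalized counts in HCX and 225, 234 and 212 in LCX (0.38, adjusted p = 0.035). Csgalnact2, which starts and extends chondroitin chains, had 548, 558 and 639 in HCX and 462, 482 and 401 in LCX (0.38, adjusted p = 0.0168). Both genes had groups that did not overlap. Chsy1, a chondroitin synthase (0.20, adjusted p = 0.0217), and Pxylp1, the phosphatase that removes phosphate from the linkage xylose (0.32, adjusted p = 0.0412), were higher as well, and Extl1, a glucosaminyltransferase of heparan sulfate, was lower (-0.17, adjusted p = 0.0175). B3galt6 and Pxylp1 lost their calls with any of the 6 libraries left out and without the filter (adjusted p = 0.0656 and 0.0641). The other 3 calls were lost with some library left out, with adjusted p over the 5 genes of up to 0.121 for B3galt6, 0.1 for Csgalnact2, 0.118 for Chsy1 and 0.151 for Pxylp1 without LCX replicate 3 and 0.0884 for Extl1 without LCX replicate 1. Between 0 and 2 members were then called higher and 0 to 1 lower.

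Sulfation genes were called about as often as all genes. Of 20 genes of GAG sulfation and epimerisation, 2 were higher in HCX (10%, against 8.35% of all genes) and 3 lower (15%, against 8.95%) (1 to 2 and 0 to 3 with 1 library left out; median -0.04). The rise of Hs3st3b1 has been given above. Another member of the 3-O-sulfotransferase family, Hs3st6, had 171, 163 and 202 in HCX and 84.1, 133 and 123 in LCX (0.67, adjusted p = 0.0169). Papss2, which makes the sulfate donor PAPS, had 287, 253 and 250.0 in HCX and 347, 325 and 413 in LCX (-0.45, adjusted p = 0.012). The groups of both genes were separate, though by narrow gaps. Ndst1, which N-sulfates heparan sulfate (-0.20, adjusted p = 0.0296), and Hs2st1, its 2-O-sulfotransferase (-0.17, adjusted p = 0.0434), were lower, but lost their calls with most libraries left out and with voom, and Hs2st1 also with library size scaling (adjusted p up to 0.053 for Ndst1 and 0.0737 for Hs2st1). Without the filter Hs3st6 had an adjusted p of 0.0506. The adjusted p without 1 library reached 0.11 for Hs3st6 (LCX replicate 1), 0.0865 for Papss2 (LCX replicate 3), 0.105 for Ndst1 (HCX replicate 2) and 0.163 for Hs2st1 (LCX replicate 3).

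Of 20 genes that make or transport nucleotide sugars 1 was higher (5%) and 2 were lower (10%), shares near those of all genes (1 and 1 to 2 with 1 library left out). Gnpnat1, an acetyltransferase on the path to UDP-GlcNAc, was lower (-0.33, adjusted p = 0.00135). The galactokinase gene Galk1 was at -0.20 (adjusted p = 0.0337, and -0.13 with an adjusted p of 0.166 without HCX replicate 3). Of 18 GAG degrading enzymes, 0 were higher and 3 lower (16.7%), also with any 1 library left out. Gusb, the lysosomal β-glucuronidase, had 1819, 1871 and 1905 in HCX against 2563, 2686 and 2555 in LCX (-0.48, adjusted p = 2.6e-06), Hexa, a hexosaminidase subunit, was at -0.31 (adjusted p = 0.000166), and Hpse, the heparanase that cuts heparan sulfate, had 140.0, 182 and 133 in HCX against 293, 279.7 and 246 in LCX (-0.85, adjusted p = 0.00124). All 3 had groups without overlap. Of 9 hyaluronan genes, Hapln4, a link protein (-0.35, adjusted p = 0.0412), and Hmmr, a hyaluronan receptor that also binds the spindle (-0.18, adjusted p = 0.048), were called lower (22.2%), and neither was called with any 1 library left out.

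Several core proteins that carry the chains were lower. Of 24 proteoglycan core genes, 11 were lower in HCX (45.8%, against 8.95% of all genes) and 2 higher, with a median of -0.22, and 7 to 9 were lower with 1 library left out, fewest without LCX replicate 3. Spock2, the testican 2 gene, had 3994, 4227 and 3992 in HCX and 6163, 5986 and 6397 in LCX (-0.60, standard error 0.05, adjusted p = 7.1e-08). Hspg2, perlecan of basement membranes, had 2065, 2262 and 2419.8 in HCX and 3281, 3494 and 3084 in LCX (-0.55, adjusted p = 5.83e-06). Col18a1, a collagen with heparan sulfate chains, had 657, 644 and 687 in HCX and 1166, 1069 and 1074 in LCX (-0.73, adjusted p = 3.41e-06). For each of these genes the distance between the doses was several times the SD within a dose. Dcn, decorin, averaged 307 ± 77.3 in HCX and 535 ± 28.1 in LCX (-0.83, adjusted p = 0.000432). Gpc1, a heparan sulfate carrier anchored in the membrane by a glycolipid (-0.26, adjusted p = 0.000644), and Tmeff2 (-0.34, adjusted p = 0.00243) were also lower. Smaller falls that lost their call with some library left out were those of Agrn, agrin of the synaptic basal lamina (-0.22), Gpc6 (-0.24), Nrp2 (-0.22), Sdc1, a syndecan (-0.18), and Tmeff1 (-0.15), with adjusted p of up to 0.0545, 0.0881, 0.0982, 0.117 and 0.219 in that order. The 2 that rose were Nrp1, a semaphorin and VEGF co-receptor that can carry a chain (1842, 1919 and 1895 in HCX against 1595, 1457 and 1469.9 in LCX, 0.32, adjusted p = 0.0017), and Aplp2, an amyloid precursor relative (0.23, adjusted p = 0.00156).

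Several genes of the surrounding matrix and its receptors were lower as well. Of 19 laminins, nidogens and matrix glycoproteins 8 were lower (42.1%) and 2 higher (10.5%), with a median of -0.35 (6 to 8 and 1 to 2 with 1 library left out). Lama4, a laminin α chain, had 2039, 2181 and 1875 in HCX and 2965, 3068 and 2865 in LCX (-0.55, adjusted p = 3.41e-06), whereas Lamb2, a laminin β chain, had 1139, 1133 and 1282 in HCX and 814, 793 and 808 in LCX (0.55, adjusted p = 0.000117). The laminin chains thus moved in opposite directions by the same amount. Fn1, fibronectin, was at -0.35 (13219 ± 739.8 in HCX and 16886 ± 647 in LCX, SD, n = 3 libraries each, adjusted p = 0.000231), and Fbln2, fibulin 2, was at -0.22 (adjusted p = 0.00383). Emilin1 was lower (-0.30, adjusted p = 0.00961), but not without HCX replicate 3 (adjusted p = 0.0542). Of 19 collagens 4 were lower (21.1%) and 1 higher (5.26%) (2 to 4 and 0 to 2), among them Col14a1 (-0.96, adjusted p = 0.00805). Of 24 matrix proteases and inhibitors 6 were lower (25%) and 1 higher (4.17%) (3 to 5 and 1), including Mmp19, a metalloproteinase with 287, 322 and 244 in HCX and 607, 555 and 712 in LCX (-1.14, adjusted p = 3.41e-06), and Adamts4, an aggrecanase that cuts chondroitin sulfate proteoglycans, with 1009.7, 1122 and 964 in HCX and 1722, 1612 and 1895 in LCX (-0.76, adjusted p = 3.41e-06).

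Of 16 integrin subunits 6 were lower in HCX (37.5%) and 1 was higher (6.25%), with a median of -0.24 (5 to 6 and 1 to 2 with 1 library left out). The collagen receptor subunit Itga2 had 459.6, 507 and 409 in HCX and 867, 891 and 883 in LCX (-0.95, standard error 0.09, adjusted p = 5.09e-07), and the related Itga1 had 1423, 1379 and 1321 in HCX and 2351, 2566 and 2384 in LCX (-0.82, standard error 0.06, adjusted p = 4.13e-08). Of the called members, the laminin receptor subunits Itga6 (-0.37, adjusted p = 3.67e-05) and Itgb4 (-0.34, adjusted p = 0.00424) were lower. Subunits that were not called included Itga3 (0.09), Itga7 (-0.17) and Itgb1 (-0.12). Itga8, a partner in receptors for RGD proteins, had 495, 419 and 406 in HCX and 323, 301 and 277 in LCX (0.55, adjusted p = 0.00216). Of 18 immunoglobulin neural adhesion genes, 8 were lower (44.4%) and 1 higher (5.56%), with a median of -0.37 (7 to 8 and 1). Ncam1, the neural cell adhesion molecule, had 6752, 7158 and 7366 in HCX and 9304, 9603 and 9804 in LCX (-0.43, adjusted p = 3.41e-06), and L1cam, which guides axon bundling, had 8364, 8417 and 7750.3 in HCX and 10273, 10747 and 10526 in LCX (-0.36, adjusted p = 1.4e-05). Dscaml1, a homophilic recognition molecule, was at -1.04 (311 ± 41.5 in HCX and 635 ± 8.92 in LCX, SD, n = 3 libraries each, adjusted p = 7.49e-07). The neuron migration genes Astn1 and Astn2 were at -0.34 (adjusted p = 0.00054) and -1.02 (adjusted p = 0.000428). Cadherins did not follow, since of 13 cadherins and protocadherins 1 was higher (Cdh2, N-cadherin, 0.37, adjusted p = 0.0477) and 1 lower (Dchs1, -0.22, adjusted p = 0.023), 7.69% each. Both calls were lost with some library left out (adjusted p up to 0.194 and 0.11 without LCX replicate 3).

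**Figure D3:**
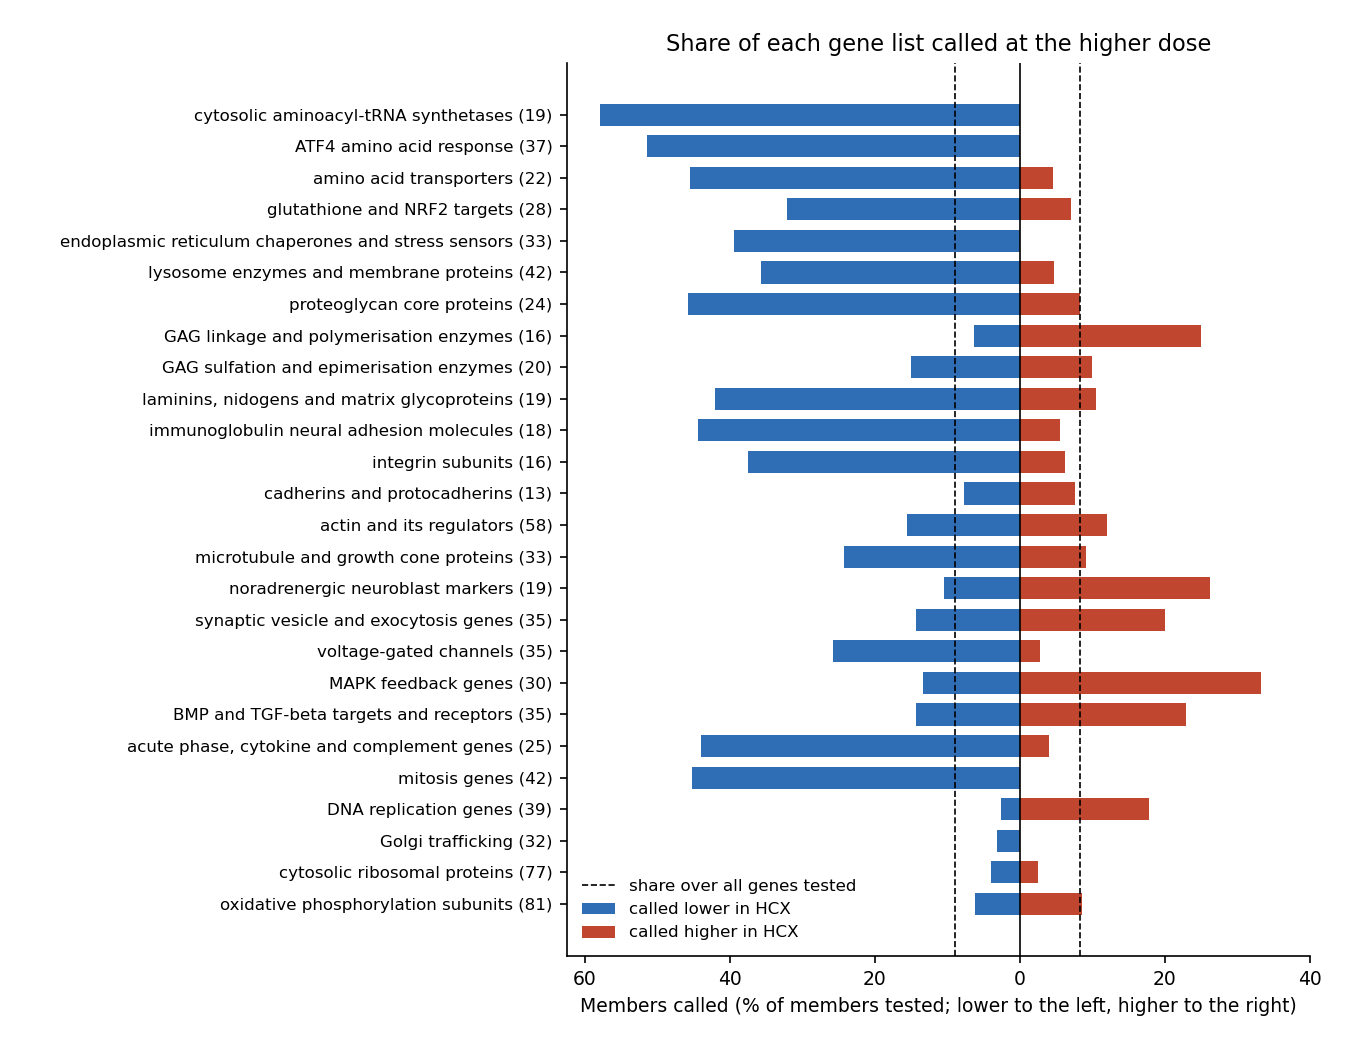
Bars give the share of each gene list that was called lower (left) or higher (right) in HCX, in percent of the members tested (number in brackets), and dashed lines mark the shares over all genes, 8.95% lower and 8.35% higher. The tRNA synthetase bar reaches 57.9% on the lower side and the MAPK feedback bar 33.3% on the higher side, while Golgi trafficking and cytosolic ribosomal proteins stay inside the lines.

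Genes of amino acid supply made up one of the more uniform groups. ATF4 is a transcription factor whose translation rises under amino acid shortage and endoplasmic reticulum stress, and with C/EBP partners it binds a composite element, TGATGNAA, in its target genes. Of 37 genes listed for the ATF4 amino acid response, 19 were lower in HCX (51.4%) and 0 higher, with a median of -0.13 and 13 to 19 lower with 1 library left out. Of the 37, 28 lay below 0 and 9 above. Atf4 itself (0.01), Ddit3 (0.01), Chac1 (0.05) and Asns (-0.11) were not called. Whether the activity of ATF4 differed between the doses was not tested. Slc7a11, which imports cystine in exchange for glutamate, had 1519, 1681 and 1779 in HCX and 2588, 2596 and 2681 in LCX (-0.66, standard error 0.06, adjusted p = 2.11e-07). Aldh1l2, a mitochondrial folate enzyme, had 14202, 15235 and 14399 in HCX and 20215, 20206 and 20462 in LCX (-0.47, standard error 0.05, adjusted p = 6.64e-07). Both showed a gap between doses many times wider than the SD in either group. Nupr1, a stress-induced chromatin protein, had 8291, 8638 and 6977 in HCX and 9972, 10733 and 10979.6 in LCX (-0.41, adjusted p = 0.00016). The glycine transporter Slc6a9 (-0.39, adjusted p = 1.65e-05) and Cth, which makes cysteine from cystathionine (-0.37, adjusted p = 2.36e-05), were lower as well, and the largest fall of the list was that of Fgf21, a stress hormone at low level (12.5, 14.1 and 20.1 in HCX against 50.9, 33 and 59.6 in LCX, -1.54, adjusted p = 0.00751, and 0.0507 without LCX replicate 3).

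Promoter windows show where the composite element stands in members that fell. RefSeq windows on GRCm38.p6 were matched to 10320 of the genes tested, and TGATGNAA was searched on both strands in the 250 bases before the start of transcription. It was found for 251 of these genes (2.43%), for 8 of the 31 list members with a window, for 5 of the 15 among them that were lower (Fgf21, Nupr1, Pck2, Pycr1 and Slc7a11) and for 3 of the 16 that were not called (Asns, Atf3 and Chac1). Of 12 tRNA synthetase genes with a window it was found for 3, the lower Gars and Tars and the uncalled Aars. These members are named because their windows hold the element. Stretches of 60 bases are given for 3 genes that were lower, 1 from each of import, stress and translation, on the minus strand of GRCm38.p6 and from 5′ to 3′, with the element in capitals.
Slc7a11, chr3:50443646-50443705: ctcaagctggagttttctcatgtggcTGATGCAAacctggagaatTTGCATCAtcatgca
Nupr1, chr7:126625547-126625606: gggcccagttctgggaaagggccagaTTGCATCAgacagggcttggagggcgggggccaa
Tars, chr15:11399659-11399718: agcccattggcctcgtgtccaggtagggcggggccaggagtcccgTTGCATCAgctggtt

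In the stretch of Slc7a11 the element stands once in each orientation. The match is a description of these letters only, and it stood upstream of members that were called and of members that were not.

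Aminoacyl-tRNA synthetases, which load amino acids onto tRNAs, were lower in part, by small amounts. Of 19 genes of the cytosolic set 11 were lower (57.9%) and 0 higher, with a median of -0.15 and 8 to 11 lower with 1 library left out. Iars, for isoleucine, had 13241, 14129 and 12985 in HCX and 16809, 16868 and 16175 in LCX (-0.31, adjusted p = 0.000173). Tars, for threonine, had 11943, 13095 and 11651 in HCX and 14626, 14200.4 and 14872 in LCX (-0.25, adjusted p = 0.000764). For both genes the highest HCX library was below the lowest LCX library. Lars (-0.25), Yars (-0.25) and Rars (-0.20), for leucine, tyrosine and arginine, were lower with adjusted p of 0.000564, 0.000666 and 0.00239. Of 22 amino acid transporters 10 were lower (45.5%) and 1 higher (4.55%), with a median of -0.17 (9 to 10 and 0 to 1). Slc7a11, Slc7a3, Slc7a1 and Slc6a9, among other lower members, also belong to the ATF4 list, so the 2 lists are not separate results. Among the lower transporters were the cationic amino acid transporters Slc7a3 (3669, 3619.5 and 2924 in HCX against 4585, 4576 and 4376 in LCX, -0.41, adjusted p = 0.000203) and Slc7a1 (-0.25, adjusted p = 0.00081) and the neutral amino acid transporter Slc6a15 (-0.43, adjusted p = 5.13e-05). In contrast, of 17 serine, glycine and folate enzymes 2 were lower (11.8%) and 1 higher (5.88%) (1 to 2 and 0 to 1). The 2 lower genes belong to the ATF4 list as well. Those lower were Aldh1l2 and Phgdh, the first enzyme of serine synthesis (-0.13, adjusted p = 0.0374, uncertain because 55.9% of its 31-base stretches occur in other genes). The call of Phgdh was lost with some library left out, with an adjusted p of up to 0.155 without LCX replicate 3.

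Of 28 genes of glutathione metabolism and NRF2 targets, 9 were lower (32.1%) and 2 higher (7.14%), with a median of -0.10 (6 to 9 and 0 to 2). Besides Slc7a11 the lower genes included Gpx4, which removes lipid peroxides (11708, 11139 and 10522 in HCX against 13811, 13229.8 and 13448 in LCX, -0.28, adjusted p = 0.00131). They also included G6pdx (-0.37, adjusted p = 0.00162) and Me1 (-0.28, adjusted p = 0.00105), which supply NADPH, and Abcc1, an exporter of glutathione conjugates (-0.26, adjusted p = 0.000677). The 2 higher genes were Prdx1 (0.20, adjusted p = 0.00925) and Pgd (0.15, adjusted p = 0.0364). Of 14 AHR targets and conjugation enzymes, which handle foreign compounds, 2 were lower (14.3%) and 1 higher (7.14%) (1 to 2 and 0 to 1). They were Abcc1, Gstm1, a glutathione transferase (-0.33, adjusted p = 0.0436, up to 0.153), and Tiparp, an AHR-induced ADP-ribosyltransferase (0.21, adjusted p = 0.0263, up to 0.104), where the second value is the highest with 1 library left out.

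Genes of the endoplasmic reticulum that fold and check glycoproteins were lower in part. Of 33 chaperones and stress sensors 13 were lower (39.4%) and 0 higher (7 to 13 lower with 1 library left out, with 7 without LCX replicate 1 and 8 without LCX replicate 3; median -0.11). Ero1l, which passes oxidizing power to protein disulfides, had 10061, 9951 and 9186 in HCX and 13487, 13492 and 13276 in LCX (-0.46, standard error 0.04, adjusted p = 5.09e-07). Hyou1, a large chaperone, had 20693, 21648 and 19703 in HCX and 25961, 24853 and 26890.0 in LCX (-0.33, adjusted p = 8.41e-05). The HCX libraries of both genes were all below the LCX libraries. Uggt1, which marks misfolded glycoproteins with glucose (-0.30, adjusted p = 0.000196), Edem1, which sends them to disposal (-0.30, adjusted p = 0.000328), and the stress sensor Atf6 (-0.26, adjusted p = 0.000211) were lower. The endoplasmic reticulum stress element in its full consensus form was found upstream of 8 of 27 list members with a window, against 19 of all 10320 genes (0.184%), and it stood before 3 of 10 that were lower and 5 of 17 that were not called. Of 32 Golgi trafficking genes, 1 was lower (3.12%) and 0 higher. It was Gorasp2, a stacking protein (-0.14, adjusted p = 0.026, and up to 0.107 with 1 library left out).

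Part of the lysosome genes were lower too. Of 42 lysosome enzymes and membrane proteins 15 were lower (35.7%) and 2 higher (7 to 13 and 0 to 2 with 1 library left out, with 7 lower without HCX replicate 3 or LCX replicate 2; median -0.12). Gaa, the acid α-glucosidase that digests glycogen, had 9777, 10677 and 9125 in HCX and 13367, 13595 and 13299.9 in LCX (-0.45, adjusted p = 2.09e-05). Cln3, a membrane protein mutated in a childhood storage disease, had 347, 318 and 325 in HCX and 441, 469 and 485 in LCX (-0.49, adjusted p = 0.00181). Gusb and Hexa, given above among the enzymes that degrade GAGs, belong to this list too, and Scarb2, a carrier of glucocerebrosidase, was at -0.25 (adjusted p = 0.000677). The letters TCACGTGA, part of a motif shared by lysosome genes, were found before 5 of 34 members with a window, against 1.74% of all genes, 3 of 13 that were lower, 2 of 19 that were not called and 0 of 2 that were higher. Of 18 subunits of the V-ATPase, the pump that acidifies lysosomes, 1 was higher (Atp6v0e, 0.22, adjusted p = 0.0195) and 1 lower (Atp6ap1, -0.18, adjusted p = 0.0139), 5.56% each. Both calls were lost with some library left out (adjusted p up to 0.0859 and 0.0743). Of 25 autophagy genes 4 were higher (16%) and 1 lower (4%) (2 to 4 and 0 to 2), with Optn the largest rise and Ulk2, an initiating kinase, at 0.30 (adjusted p = 0.00876, up to 0.0581 without LCX replicate 2).

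**Figure D4:**
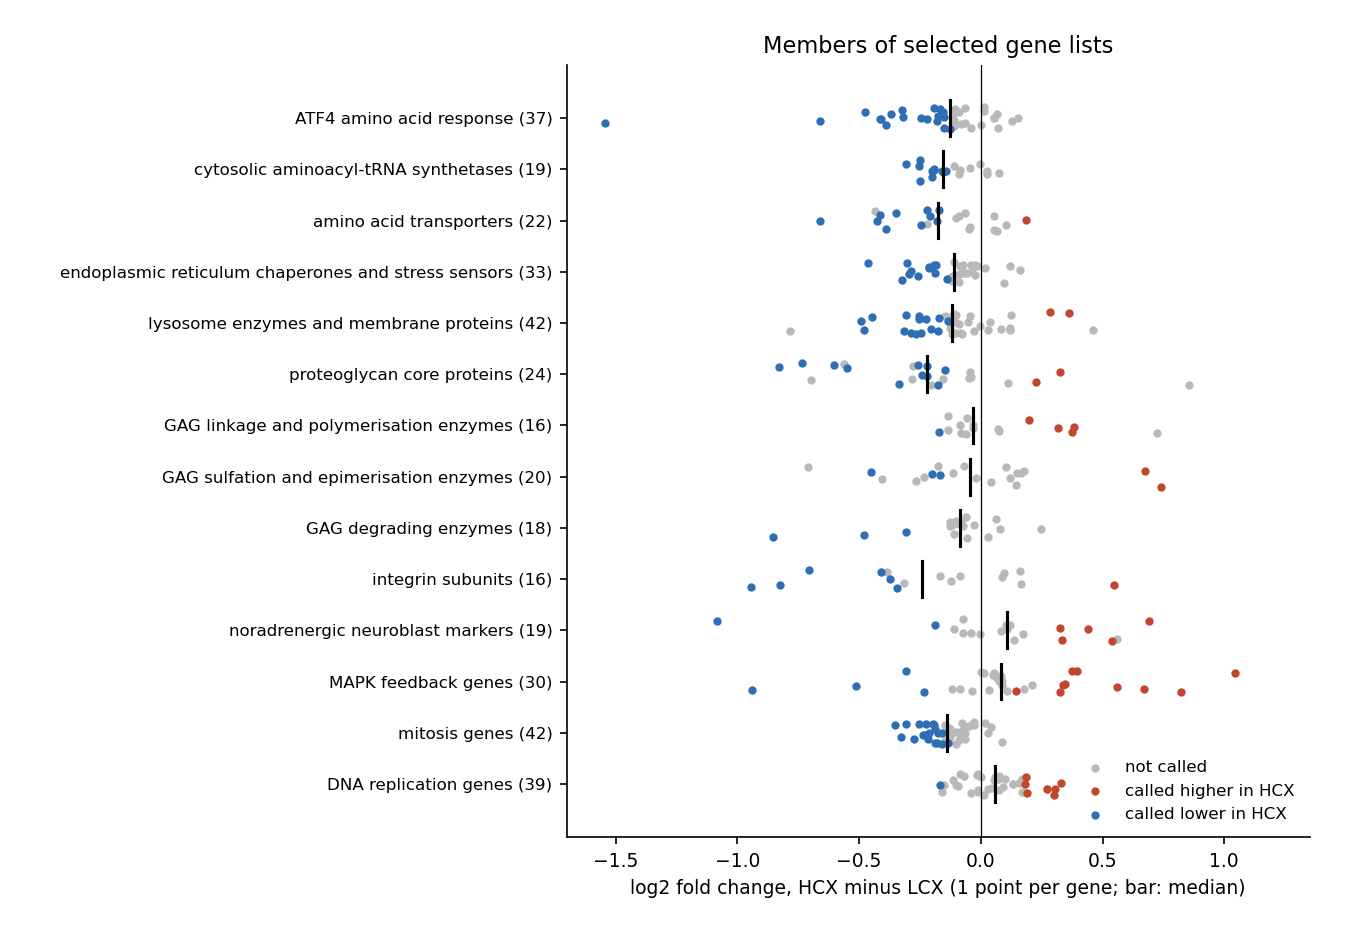
Each point is the log2 fold change of HCX over LCX of 1 gene in the list named at the left, coloured by its call, and each bar is the median of the list. Members of the amino acid, endoplasmic reticulum and mitosis lists lie mostly between 0 and -0.5, and GAG enzymes spread to both sides of 0, with Hs3st3b1 at 0.74 and Hpse at -0.85.

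Genes of actin were called at shares not far from those of all genes. Of 58 genes of actin and its regulators 7 were higher (12.1%, against 8.35%) and 9 lower (15.5%, against 8.95%) (4 to 6 and 5 to 9 with 1 library left out), with a median of -0.005, and with library size scaling or voom 11 were higher. Besides Avil, Flnc, the crosslinker filamin C, had 5532, 6404 and 5982 in HCX and 8489.6, 7760.2 and 8549 in LCX (-0.47, adjusted p = 4.62e-06). Of the linkers between actin and the membrane, Ezr, ezrin, had 3965, 3919 and 3952 in HCX and 3140.0, 3157 and 2972 in LCX (0.35, adjusted p = 6.85e-05), while Msn, moesin, had 6921, 6733 and 6346 in HCX and 7973, 8000.3 and 8538 in LCX (-0.29, adjusted p = 0.000818). These 2 members of one family therefore moved in opposite directions, each without overlap. Rdx, radixin of the same family, was higher like Ezr (0.15, adjusted p = 0.0264). Actn1, α-actinin 1, was higher (0.28, adjusted p = 0.0006). Of 18 muscle-type actin and contractile genes 6 were lower (33.3%) and 2 higher (11.1%) (5 to 7 and 1 to 2), with Actg2, smooth muscle γ-actin (76.1, 79.1 and 60.7 in HCX against 178, 191 and 129.5 in LCX, -1.18, adjusted p = 0.00026), the intermediate filament gene Des (-0.64, adjusted p = 0.00874) and Cnn2, a calponin (0.27, adjusted p = 0.00319). Without HCX replicate 2 the value of Des was -0.41 (adjusted p = 0.0492).

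Of 26 myosins 3 were higher and 3 lower, 11.5% each and near the shares of all genes (2 to 3 each with 1 library left out). Myo16 had 141, 135 and 139 in HCX and 246, 268 and 305 in LCX (-0.97, adjusted p = 7.77e-05), and Myo5c had 81.4, 84.2 and 40.5 in HCX and 141, 158 and 192 in LCX (-1.30, adjusted p = 0.000797). Myo6, which walks towards the minus end of actin, was higher (618 ± 63.3 in HCX and 449 ± 39.6 in LCX, SD, n = 3 libraries each, 0.46, adjusted p = 0.00355), as was the light chain gene Myl12b (0.26, adjusted p = 0.003). Of 15 tubulins 0 were higher and 2 lower (13.3%), Tubb5 and Tuba4a (-0.47, adjusted p = 0.0383, up to 0.153), and 0 to 3 were lower with 1 library left out. Of 33 microtubule and growth cone genes 8 were lower (24.2%) and 3 higher (9.09%) (6 to 8 and 1 to 4). Gap43, a growth cone protein of extending axons, had 2563, 2673 and 2244 in HCX and 3922, 3721 and 3918 in LCX (-0.63, adjusted p = 4.47e-06). Stmn1, which destabilizes microtubules, had 25287, 26499.9 and 24162 in HCX and 31150.4, 29823 and 29683 in LCX (-0.26, adjusted p = 0.0005). Map1a (-0.35, adjusted p = 0.000146), Dpysl3, a collapsin response mediator (-0.27, adjusted p = 0.000457), and Kif5a, a neuronal kinesin (-0.27, adjusted p = 0.00027), were lower too. Of 12 intermediate filament genes 4 were higher (33.3%) and 2 lower (16.7%) (3 to 5 and 1 to 2). Vim, vimentin (0.21, adjusted p = 0.00648), Ina, α-internexin of neurons (0.25, adjusted p = 0.00164), and the nuclear lamin Lmnb2 (0.29, adjusted p = 0.0032) were higher.

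Axon guidance genes were called at shares near those of all genes. Of 46 ligands and receptors 7 were lower (15.2%, against 8.95%) and 4 higher (8.7%, against 8.35%) (5 to 7 and 2 to 3 with 1 library left out; median -0.08). Neo1, a receptor of repulsive guidance molecules, had 10341, 10867 and 10280.4 in HCX and 14501, 14668 and 15301 in LCX (-0.50, standard error 0.04, adjusted p = 1.08e-07). Unc5c, a netrin receptor, had 4409, 4558 and 4677 in HCX and 3327, 3709.8 and 3365 in LCX (0.39, adjusted p = 0.000231). Both differences exceeded the spread of the libraries, in opposite directions. The semaphorin receptors Plxnc1 (-0.39, adjusted p = 0.00025) and Plxna3 (-0.30, adjusted p = 0.00053) were lower.

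Genes of the sympathetic lineage from which neuroblastoma arises were higher in part. Of 19 noradrenergic neuroblast genes tested, 5 were higher (26.3%, against 8.35% of all genes) and 2 lower, with a median of 0.11 and 5 to 6 higher with 1 library left out. Apart from Hand2, Phox2a, which specifies noradrenergic neurons, had 6009.6, 6045 and 6302 in HCX and 4618, 5324 and 4731 in LCX (0.33, adjusted p = 0.000301). Mycn, the oncogene of neuroblastoma, had 526, 479 and 615 in HCX and 308, 349 and 343 in LCX (0.69, adjusted p = 0.000675). In both genes each HCX library exceeded each LCX library. Slc18a2, the transporter that loads monoamines into vesicles (0.33, adjusted p = 0.00143), and Chga (0.44, adjusted p = 2.81e-06) were higher. The 2 called lower were Ddc, at a mean of 56 normalized counts (-1.08, adjusted p = 0.00892), and Alk (-0.19, adjusted p = 0.0429). Of the 19 genes, 12 lay above 0 and 7 below. Of 12 sensory neuron genes 4 were lower (33.3%) and 1 higher (8.33%) (3 to 4 and 1), with P2rx3 and Avil in front. P2rx4, another ATP-gated channel, was at -0.32 (adjusted p = 0.00378), Ntrk3, the receptor of neurotrophin 3, at -0.20 (adjusted p = 0.0196, up to 0.102), and the transcription factor Pou4f2 had 318, 271 and 288 in HCX against 164, 165 and 173 in LCX (0.80, adjusted p = 0.000275).

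Granule and synapse genes had members on both sides. Of 16 secretory granule and neuropeptide genes 4 were higher (25%) and 5 lower (31.2%), with a median of -0.01 (4 and 2 to 4 with 1 library left out). Chga, chromogranin A, had 11226, 10832 and 11344 in HCX and 7948, 8624 and 8081 in LCX, whereas Scg2, another granin, had 5218, 5553 and 4478 in HCX and 7057, 6895 and 7017 in LCX (-0.47, adjusted p = 3.58e-05). Chgb and Vgf were higher and Ppy was lower, as given above, so the granins did not move as one. Of 35 synaptic vesicle and exocytosis genes 7 were higher (20%) and 5 lower (14.3%) (3 to 5 and 3 to 6). Rab3a, a GTPase of vesicles, had 1172, 898 and 1019 in HCX and 715, 745 and 761 in LCX (0.47, adjusted p = 0.00121), and Cplx2, complexin 2, had 1449.5, 1405 and 1624 in HCX and 2155, 2105 and 2334 in LCX (-0.56, adjusted p = 8.4e-06). Vamp1 (0.59, adjusted p = 0.00354) and Syt6 (0.22, adjusted p = 0.00316) were higher and Syn2 was lower (-0.25, adjusted p = 0.00225).

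Voltage-gated channels were mostly lower where they changed. Of 35 genes 9 were lower (25.7%) and 1 higher (2.86%), with a median of -0.16 (7 to 8 and 0 to 1). Among T-type calcium channel genes, Cacna1i (543, 562 and 616 in HCX against 910.1, 886 and 917 in LCX, -0.66, adjusted p = 8.73e-06) and Cacna1g (702, 791 and 789.5 in HCX against 1061, 1127 and 1137 in LCX, -0.54, adjusted p = 0.000182) were both lower. Cacna1h, another T-type gene, was at -0.42 and not called (adjusted p = 0.107). Dpp6, an auxiliary subunit of potassium channels, had 174, 154 and 93.8 in HCX and 287, 302 and 307 in LCX (-1.13, adjusted p = 0.000168). Scn1a, a sodium channel (-1.51, adjusted p = 0.00407), and Kcnh2, the ERG potassium channel (-0.22, adjusted p = 0.00382), were lower. Of 16 transmitter-gated channel genes 4 were lower (25%) and 2 higher (12.5%), with a median of 0.009 (2 to 3 and 1 to 2). The nicotinic subunit Chrna3 of sympathetic ganglia had 4327, 3709 and 3946 in HCX and 2970.2, 3171 and 2950.5 in LCX (0.40, adjusted p = 0.000117), and its partner Chrna5 was at 0.77 (adjusted p = 0.0126, and 0.0533 without HCX replicate 3). In the other direction Htr3a, a serotonin-gated channel (-0.48, adjusted p = 0.0015), was lower.

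Genes induced by MAP kinase signalling, many of which encode its inhibitors, held the largest share of rises among the lists with at least 20 members. Of 30 MAPK feedback genes 10 were higher (33.3%) and 4 lower, with a median of 0.08 and 8 to 11 higher with 1 library left out. Dusp6, the phosphatase of ERK, had 11658, 11447 and 11404 in HCX and 9083, 9051 and 8518 in LCX (0.37, adjusted p = 2.43e-05). Etv1, an ETS factor, had 857, 766 and 827 in HCX and 485, 539 and 515 in LCX (0.67, adjusted p = 2.15e-05). Lrig1, a transmembrane brake on growth factor receptors, had 837, 828 and 876 in HCX and 502, 536 and 407 in LCX (0.82, adjusted p = 1.66e-05). These 3 genes, like Spry2, a Sprouty inhibitor (0.39, adjusted p = 4.98e-05), had no overlap between doses. Of 25 immediate early genes 5 were higher (20%) and 1 lower (4%) (2 to 5 and 0 to 3). Ier5 had 1563, 1641 and 1645 in HCX and 1208, 1212 and 1221 in LCX (0.41, adjusted p = 6.09e-05). Arc (0.20), Ier2 (0.17) and Nr4a3 (0.45) were higher and Nr4a1 (-0.31) was lower, and these 4 calls were lost with some library left out (adjusted p up to 0.0923, 0.0715, 0.115 and 0.0596).

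Growth factor pathways outside the MAPK list showed no common direction. Of 15 FGF ligands and receptors 2 were higher (13.3%) and 3 lower (20%) (1 to 2 and 1 to 3 with 1 library left out). Fgf15 had 323, 348 and 296 in HCX and 502, 512 and 516 in LCX (-0.66, adjusted p = 0.000116), against the rise of Fgf18. Of 35 BMP and TGF-beta targets and receptors 8 were higher (22.9%) and 5 lower (14.3%), with a median of 0.07 (4 to 6 and 1 to 5). Gdf11, a ligand of the family, had 1114, 1202 and 1344 in HCX and 813, 719 and 883 in LCX (0.60, adjusted p = 0.000127), and Fst, follistatin, which binds such ligands, had 229, 253 and 397 in HCX and 179.9, 152 and 160.5 in LCX (0.80, adjusted p = 0.00355). The pseudoreceptor Bambi (0.41, adjusted p = 0.00588) and the protease Bmp1 (0.27, adjusted p = 0.00215) were higher, and Tgfb1 was lower (-0.36, adjusted p = 0.00417). Of 30 Wnt ligands, inhibitors and targets 3 were higher (10%) and 6 lower (20%) (3 and 2 to 6), the 3 being the receptors Fzd7 (1055, 967 and 1017 in HCX against 755, 759 and 743 in LCX, 0.43, adjusted p = 0.00251) and Fzd3 (0.30, adjusted p = 0.000684) and the secreted Dkk3 (0.24, adjusted p = 0.00554). Notum, a secreted Wnt deacylase, was at -0.42 (adjusted p = 0.0109, and 0.0539 without HCX replicate 3).

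Acute phase, cytokine and complement genes had the lowest median of the lists with at least 20 members. Of 25 genes 11 were lower in HCX (44%), 7 of them at 2-fold, and 1 higher, with a median of -0.52 and 9 to 11 lower with 1 library left out. Il6, interleukin 6, had 1109, 1356 and 1099 in HCX and 1985, 1862 and 1746 in LCX (-0.65, adjusted p = 4.67e-05). Masp1, a protease that starts the lectin pathway of complement, had 411, 382 and 367 in HCX and 821, 868 and 813 in LCX (-1.11, standard error 0.08, adjusted p = 2.72e-08). The coagulation factor gene F5 had 157, 137 and 119.7 in HCX and 304, 269.8 and 280.0 in LCX (-1.05, adjusted p = 2.73e-05). With Lcn2 and Ccr10, these are secreted proteins or their receptors, and none of the 5 had overlapping groups. Of 25 interferon response genes 1 was lower (4%) and 0 higher, namely Ifi27 (1812, 1795 and 1599 in HCX against 2356, 2076 and 2346 in LCX, -0.38, adjusted p = 0.000964).

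Cell cycle genes were read in a list for mitosis and a list for DNA replication, whose difference was not tested. Of 42 mitosis genes 19 were lower (45.2%) and 0 higher, with a median of -0.14, and of 39 DNA replication genes 7 were higher (17.9%) and 1 lower, with a median of 0.06. With 1 library left out these numbers were 6 to 16 and 4 to 7, and the fewest were without LCX replicate 3 (6 and 4). Without HCX replicate 3 or LCX replicate 1, 12 and 10 mitosis genes were lower. Cdc25b, a phosphatase that starts mitosis, had 1599.8, 1732 and 1661 in HCX and 2164, 2064 and 2150.3 in LCX (-0.35, adjusted p = 0.000245). Nusap1, a spindle protein, had 2269.7, 2457 and 2088 in HCX and 2877, 2765 and 2900.3 in LCX (-0.33, adjusted p = 0.000559). Their HCX libraries were all below the LCX libraries, by amounts of no more than 1.5-fold. Cdc20, which activates the anaphase-promoting complex (-0.31, adjusted p = 0.00513), Cdca8 (-0.24, adjusted p = 0.00182) and Anln, of the contractile ring (-0.21, adjusted p = 0.00435), were lower. On the side of replication, Slbp, which binds histone mRNA, had 2350.0, 2343 and 2352 in HCX and 1887, 1896 and 1943 in LCX (0.30, adjusted p = 0.000746). Gins2, of the replicative helicase (0.33, adjusted p = 0.00358), Prim2, of primase (0.30, adjusted p = 0.00212), and Rrm2, a subunit of ribonucleotide reductase (0.27, adjusted p = 0.00198), were higher, and Rrm1, the other subunit, was lower (-0.17, adjusted p = 0.00947, and 0.0662 without LCX replicate 2). Of 16 cyclins and CDK inhibitors 1 was higher (6.25%) and 0 lower. It was Cdkn1b, the inhibitor p27 (0.21, adjusted p = 0.0115, and 0.0513 without LCX replicate 3).

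Of 48 histone genes 6 were higher (12.5%) and 1 lower (2.08%) (5 to 6 and 1 to 2 with 1 library left out). The variants H1f0 (31737, 31244 and 34937 in HCX against 25187, 27117 and 25323 in LCX, 0.33, adjusted p = 0.00124) and H2afv (0.28, adjusted p = 0.00197) rose with H3f3b. The most extreme values of the table belong to 2 neighbours of the histone cluster on chromosome 13 that cannot be told apart well. Hist1h2ap was listed at 0 in all 3 HCX libraries and had 49.4, 70.5 and 48.5 in LCX libraries, and Hist1h2ao had 55.6, 35.9 and 33.9 in HCX and 3.1, 2.91 and 0 in LCX. They share 93.4% and 93.8% of their 31-base stretches with other genes, so both values are uncertain and no fold is given.

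Several housekeeping groups stayed near the background. Of 77 cytosolic ribosomal proteins 2 were higher (2.6%) and 3 lower (3.9%) (1 to 3 and 0 to 11 with 1 library left out), all within 0.23 on the log2 scale. Rps12 had 48167, 51003 and 49716 in HCX and 45255, 41929 and 42659 in LCX (0.20, adjusted p = 0.00572). Of 77 mitochondrial ribosomal proteins 4 were higher (5.19%) and 7 lower (9.09%) (1 to 5 and 3 to 6), among them Mrps6 (0.34, adjusted p = 0.000332) and Mrpl3 (-0.31, adjusted p = 0.00259). Of 81 subunits of oxidative phosphorylation 7 were higher (8.64%) and 5 lower (6.17%) (3 to 8 and 2 to 5). In the last group Uqcrh, of complex III, had 2598, 2356 and 2344 in HCX and 1926, 1803 and 1825 in LCX (0.39, adjusted p = 9.14e-05), and Cox6a2, the muscle form of a complex IV subunit, had 440.5, 517 and 413 in HCX and 823, 762 and 864 in LCX (-0.84, adjusted p = 4.95e-06). Of 18 glycolysis genes 2 were lower (11.1%) and 0 higher (2 to 4 lower), namely Eno2, neuronal enolase (-0.43, adjusted p = 0.000782), and Ldha (-0.21, adjusted p = 0.00588). Of 23 hypoxia targets 2 were lower (8.7%) and 0 higher (2 to 3 lower), namely Car12 (-0.66, adjusted p = 1.47e-05) and Ero1l. Of 18 heat shock genes 3 were lower (16.7%) and 1 higher (5.56%) (2 to 5 and 1 to 2), with Hspa9 at -0.25 (adjusted p = 0.000419) and Bag3 at 0.23 (adjusted p = 0.00123). Of 18 p53 targets 2 were lower (11.1%) and 0 higher, the spindle-associated Gtse1 (-0.21, adjusted p = 0.015) and Polk (-0.19, adjusted p = 0.0403), and either call was lost with some library left out (adjusted p up to 0.0628 and 0.178).

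Lipid and imprinted genes follow. Of 33 genes of cholesterol and fatty acid synthesis 8 were lower (24.2%) and 2 higher (6.06%), with a median of -0.07 (4 to 8 and 2 to 3). The 2 were Acly and Pmvk, phosphomevalonate kinase (0.30, adjusted p = 0.000812). Stard4, a sterol carrier (-0.30, adjusted p = 0.000919), Elovl6 (-0.27, adjusted p = 0.0051) and Fdps (-0.24, adjusted p = 0.00682) were lower. Of 14 ganglioside genes 4 were lower (28.6%) and 1 higher (7.14%) (1 to 4 and 1). B4galnt1, which makes GM2 and GD2, had 2174, 2308 and 2155 in HCX and 2666, 2712 and 2718 in LCX (-0.29, adjusted p = 0.00338), and B4galt6, a lactosylceramide synthase, was higher (0.29, adjusted p = 0.00282). Of 22 imprinted genes 4 were lower (18.2%) and 2 higher (9.09%) (2 to 4 and 2 to 3). Besides Grb10, Mest was lower (24518, 22273 and 22680.1 in HCX against 28826, 29522 and 28049 in LCX, -0.32, adjusted p = 0.000166), and Peg10 (0.34, adjusted p = 0.000373) and Peg3 (0.31, adjusted p = 0.000806) were higher.

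Marker lists of other cell types were read beside these results. Of 13 epithelial genes tested 4 were lower (30.8%) and 1 higher (7.69%) (3 to 4 and 0 to 1 with 1 library left out). Their median was -0.0, with 7 of the 13 below 0 and 6 above, so the list had no common direction. The sum over all 28 genes was 8105 to 8330 in HCX and 8865 to 9254 in LCX, and the fall of Cdsn given above is part of it. Of the 28 genes, 16 had a mean below 10 over the 9 libraries. Among these, 7 were at 0, including the keratins Krt5 and Krt14. Cdsn and Eppk1, epiplakin (23.9, 41.2 and 35.4 in HCX against 92.6, 90.2 and 80.9 in LCX, -1.40, adjusted p = 0.000448), fell with Krt8 (-0.63, adjusted p = 0.00218). Of 14 mesenchymal genes 4 were lower (28.6%) and 1 higher (7.14%) (3 to 5 and 1). Their median was -0.21, with 13 of 14 below 0. The sums over 22 genes were 53592 to 57756 in HCX and 56017 to 58500 in LCX, with Col3a1, Twist1 and Fap at 0. Fbn1, fibrillin, was at -0.59 (adjusted p = 0.00255). Of 5 immune and endothelial genes all were below 0 (median -0.59) and 1 was called lower (20%), Pecam1 (175, 138 and 128 in HCX against 232, 215 and 214 in LCX, -0.59, adjusted p = 0.00813), with sums over 16 genes of 348 to 409 in HCX and 484 to 545 in LCX. The defining genes Itgam, C1qa, Kdr, Emcn and Cldn5 were at 0 in every library and Ptprc had a mean below 10. Of 6 glial genes, with a median of -0.16, 1 was lower (16.7%) (1 to 2), Pmp22 (-0.39, adjusted p = 4.65e-05), which makes up most of the sum of 6452 to 7344 in HCX and 8454 to 8569 in LCX over 12 genes, and Foxd3, Fabp7 and Cdh19 were at 0. The part of these sums in the falls of matrix, adhesion and acute phase genes was not tested, and in bulk RNA fewer cells of a type and less RNA per cell cannot be told apart.

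With DMSO placed before both doses, 0 genes were called for LCX against DMSO (0%) and 2536 for HCX against DMSO (19.2%) in that model. The comparisons share libraries, so the values are only set side by side. Median-ratio factors were 1.0191 to 1.0201 in DMSO libraries, above those of both doses, and each difference from DMSO below carries this offset. Slc7a11 had 2872, 2733 and 2849 in DMSO. It had 2588, 2596 and 2681 with LCX treatment and 1519, 1681 and 1779 with HCX treatment, with a log2 difference of LCX minus DMSO of -0.10 (95% interval -0.23 to 0.02). Spock2 had 6497, 5897 and 6371 in DMSO, with 6163, 5986 and 6397 in LCX cells and 3994, 4227 and 3992 in HCX (LCX minus DMSO -0.02, interval -0.12 to 0.08). Hs3st3b1 had 1914, 1729 and 1664 in DMSO cells, with 1674, 1682 and 1697 in LCX cells and 2777, 2836 and 2836 in HCX (LCX minus DMSO -0.07, interval -0.19 to 0.05). In these 3 genes the interval for the low dose excludes a change of 1.25-fold, and the values of the high dose lie apart from all 6 others.

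**Figure D5:**
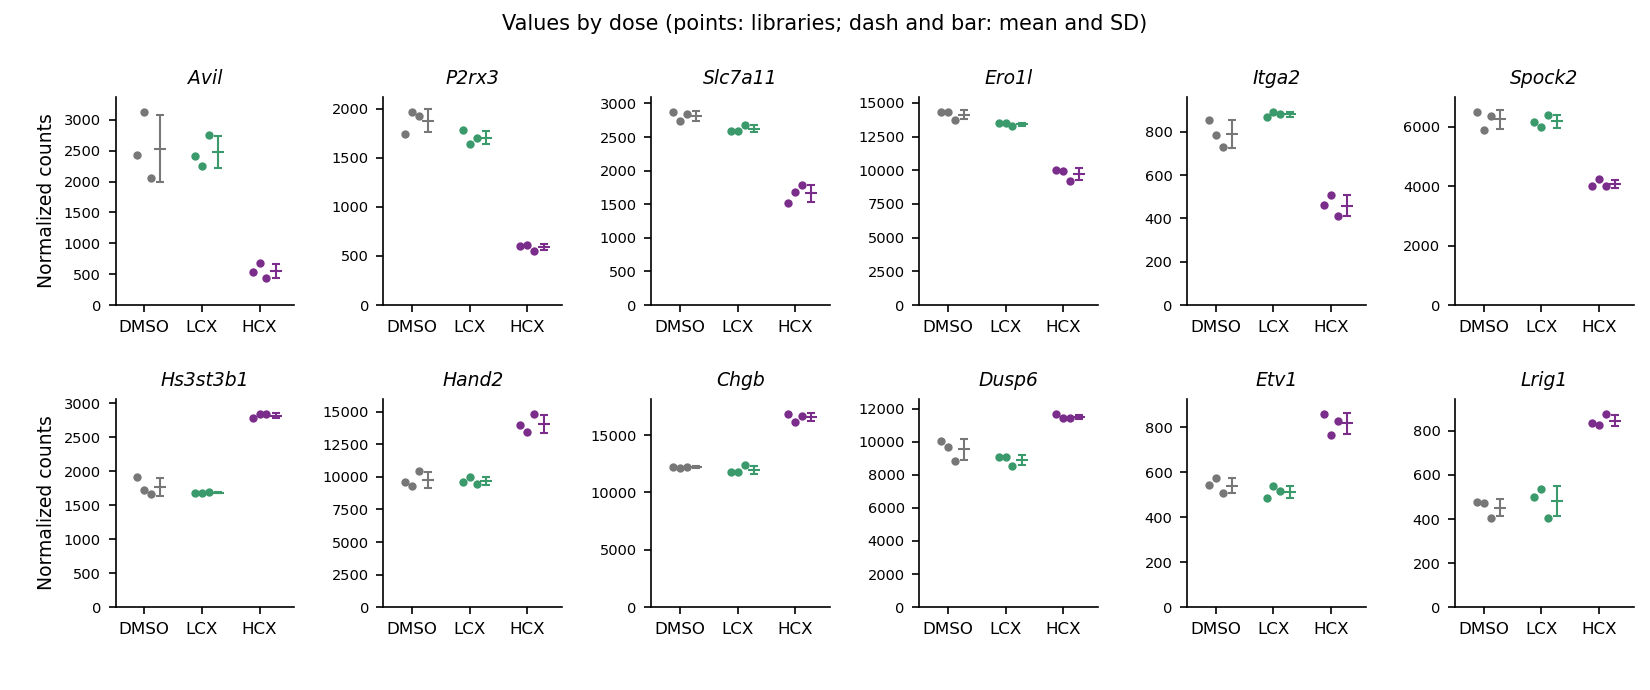
Normalized counts are shown for 12 genes in DMSO, LCX and HCX, with 1 point per library and the mean with its SD beside them, on axes that start at 0. In each panel the HCX points stand apart from the DMSO and LCX points, as for Dusp6 with 11404 to 11658 in HCX against 8518 to 9083 in LCX.

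Some genes that differed between the doses had a DMSO mean between those of LCX and HCX, and 5 are given that were chosen after their values were seen. Klhl3 had 36.6, 19.4 and 41.3 in DMSO cells, with 11.2, 16.5 and 23.2 in LCX cells and 48.9, 36.2 and 36.4 in HCX, and its HCX minus DMSO value was 0.37 (adjusted p = 0.55). Fam163b had 39.5, 51.2 and 46.1 in DMSO cells, with 16.3, 32 and 31.3 in LCX cells and 54.2, 57.3 and 70.1 in HCX (HCX minus DMSO 0.40, adjusted p = 0.39). B4galt6 had 2209, 2118 and 2102 in DMSO cells, with 1959.6, 1865 and 1872 in LCX cells and 2134, 2295 and 2534 in HCX (HCX minus DMSO 0.11, adjusted p = 0.21). In these genes LCX lay below DMSO and HCX above it. The same order was seen for Fst, with 207, 195 and 253 in DMSO (LCX minus DMSO -0.40, interval -0.77 to -0.04), and for Rps12, with 46955, 49849 and 48938 in DMSO (HCX minus DMSO 0.03, adjusted p = 0.69). None of them was called between LCX and DMSO.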

How the data were processed

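Total RNA of Neuro2a cells was isolated with the Direct-zol kit and sequenced after TruSeq stranded mRNA preparation, in 3 libraries each of HCX, LCX and DMSO. The submitters' processing notes name Bowtie, TopHat2, Partek and mm10, and versions, annotation and the use of strand in counting are not given in the sources used here. The deposited signal values are counts that the authors normalized for library size, and whole reads could not be recovered from them, so depth is unknown. Library sums therefore describe scaled values. The study's figure legend gives a longer exposure than the 48 h of the labels. Of 24972 names, 26 had been turned into dates and 24420 were placed on GENCODE vM21.

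Values were tested as log2(value + 1) with limma 3.58.1 (limma-trend, R 4.3.3), 1 mean per group over 9 libraries with 6 residual degrees of freedom, and Benjamini-Hochberg adjustment over 13179 genes. Fold changes are HCX minus LCX on this log2 scale, and p-values are two-sided. Figures and summaries used Python 3.11.15. In simulated data for this comparison (200 changed of 13179 genes, 10 draws) 49.2%, 74.2%, 86% and 93.8% of genes changed by 1.25-fold, 1.5-fold, 2-fold and 4-fold were recovered, and 5.9% of calls were false. In the data 17.3% of genes were called, far more than were changed in the simulation, so these rates need not hold for the calls given here.

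Members were described in 61 gene lists, some of which share members. The comparison and the lists were chosen with earlier results of these data known. Genes were named by rule: up to 12 at 2-fold in each direction with groups apart and a mean of at least 35.8 normalized counts in the higher group, the 6 of smallest adjusted p in each direction, the 6 most abundant called, up to 5 called members of each list, and all called GAG enzyme and core protein genes. Outside the rule, Ddc, Alk, Atf4 and Ddit3 were added to show list members that did not move with those named. Names of the Gm and Rik type were not used. A few genes of the lists are not reported here by name. A gene was uncertain where 50% or more of its 31-base stretches occur in other genes. Promoter windows came from RefSeq. Alternatives were other scalings, voom, filters, pseudocounts, thresholds, 6 libraries, a replicate block and leaving out each library.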

Additional observations from a re-analysis of the deposited data

How the results depend on the processing

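With other settings genes were called in both directions, and the counts moved with the threshold. Tested against a change of 1.2-fold (limma's treat), 28 genes were higher and 106 lower, 4 and 42 of them at 2-fold. At an adjusted p below 0.01 the counts were 470 and 586, with 9 and 56 at 2-fold, and with a fold of at least 1.5 they were 80 and 211. Without a filter 30 genes were higher at 2-fold, and with a pseudocount of 10 there were 11 higher and 54 lower at 2-fold. With library size scaling 1305 were higher and 1002 lower, and with voom 1290 and 955, so that higher calls outnumbered lower ones. Among genes named by rule B3galt6, Cdh2, Galk1, Gstm1, Hapln4, Hmmr, Hs2st1, Hs3st6, Klhl3, Ndst1, Nr4a3, Nrp2, Phgdh, Polk, Pxylp1, Sdc1, Tmeff1, Tuba4a and Tubb5 lost their calls in at least 1 of these scalings, filters or pseudocounts (adjusted p up to 0.119, for Tubb5). With each library left out, 641 to 868 genes were higher and 728 to 1032 lower, and 11 to 23 and 62 to 102 at 2-fold. The causes of these shifts were not tested.

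Replicate numbers did not pair the samples, since deviations of same-numbered HCX and LCX libraries correlated at -0.104, 0 and 0.041 across genes. With the replicate block 1025 genes were higher and 1125 lower, with 19 and 85 at 2-fold. Of the genes named by rule, Hapln4 (adjusted p = 0.0549), Hs2st1 (0.0524), Phgdh (0.0611), Pxylp1 (0.0557) and Tmeff1 (0.0632) were not called with it.

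With 3 libraries a group and unknown depth, 95% intervals lay within 1.5-fold of no change for 77.5% of genes. Among genes with a mean below 100 the median standard error was 0.384 on the log2 scale, and changes of these genes were estimated least exactly.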
